A study of Homo sapiens with 29 samples.

Results

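Messenger RNA levels of 47 human genes of DNA replication and of the G1/S transition were followed in BEAS-2B cells exposed to N-OH-PhIP, the N-hydroxylated metabolite of the cooked-meat amine PhIP. The genes are those that load, fire and copy replication origins, together with the E2F factors and cyclins that act at S phase entry. They were taken as a list of gene symbols, 47 of the 19775 genes that the array names by a single symbol. The list covered 90 probe sets, of which 79 were bright enough to be tested, and each gene was represented by its probe set of highest mean level. That probe set was among the tested ones for all 47 genes.

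The data were 29 arrays of cultures in 10 groups. BEAS-2B cells come from human bronchial epithelium and were immortalised by a hybrid of adenovirus and SV40, whose T antigen binds the RB family proteins and p53. Exposed cultures received 0.1, 0.5, 1, 5, 10, 50, 100, 500 or 1000 nM N-OH-PhIP for 24 h, with 3 arrays per dose except 2 at 0.5 nM (replicates 1 and 3), and 3 control cultures received the solvent DMSO alone. Every culture, controls included, contained 1% DMSO. The titles reach down to 0.1 nM while the treatment protocol names 0.5 nM as the lowest dose, and the titles were used.

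In G1 the origin recognition complex, CDC6 and CDT1 place the MCM2-7 helicase on DNA, a step called licensing that geminin blocks by binding CDT1. At S phase entry the kinase CDC7 and the cyclin-dependent kinases convert loaded MCM2-7 into an active helicase with CDC45 and the GINS complex, and DNA polymerase alpha with its primase starts each new strand. Cyclins D and E release E2F factors from RB proteins, and E2F factors transcribe many of the genes of this machinery.

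Promoters of several of these genes carry E2F sites, and 7 are shown because the motif stands in front of genes that moved in opposite directions at the higher doses. The sequences are RefSeq bases of build GRCh38.p14, 160 bases that end at the base before the gene's start, written 5′ to 3′ on the gene's strand. Capitals mark a match to TTTCCCGC, TTTGGCGC or TTTCGCGC on either strand, and overlapping matches run together.
E2F1 (chr20:33686386-33686545, minus strand): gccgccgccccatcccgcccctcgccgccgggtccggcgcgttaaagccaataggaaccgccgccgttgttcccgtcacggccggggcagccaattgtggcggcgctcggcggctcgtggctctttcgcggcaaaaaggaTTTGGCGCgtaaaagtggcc
E2F2 (chr1:23531234-23531393, minus strand): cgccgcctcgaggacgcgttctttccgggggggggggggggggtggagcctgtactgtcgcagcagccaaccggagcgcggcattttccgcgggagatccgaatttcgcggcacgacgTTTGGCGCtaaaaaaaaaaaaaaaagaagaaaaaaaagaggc
CDT1 (chr16:88803629-88803788, plus strand): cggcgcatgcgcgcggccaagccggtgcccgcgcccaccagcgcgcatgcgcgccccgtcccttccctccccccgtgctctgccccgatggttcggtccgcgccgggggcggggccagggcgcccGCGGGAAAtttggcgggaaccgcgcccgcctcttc
GINS2 (chr16:85688955-85689114, minus strand): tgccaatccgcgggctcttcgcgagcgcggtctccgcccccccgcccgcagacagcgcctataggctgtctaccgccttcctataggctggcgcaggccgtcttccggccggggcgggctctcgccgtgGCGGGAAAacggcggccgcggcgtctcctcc
MCM6 (chr2:135876444-135876603, minus strand): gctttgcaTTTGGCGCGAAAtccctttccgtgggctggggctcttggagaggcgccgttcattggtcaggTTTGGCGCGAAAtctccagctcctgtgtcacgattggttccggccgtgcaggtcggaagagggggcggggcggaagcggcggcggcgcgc
POLA1 (chrX:24693758-24693917, plus strand): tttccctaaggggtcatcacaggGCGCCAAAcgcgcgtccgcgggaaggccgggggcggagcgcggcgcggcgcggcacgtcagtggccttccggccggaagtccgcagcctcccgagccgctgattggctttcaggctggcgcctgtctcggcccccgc
POLA2 (chr11:65261802-65261961, plus strand): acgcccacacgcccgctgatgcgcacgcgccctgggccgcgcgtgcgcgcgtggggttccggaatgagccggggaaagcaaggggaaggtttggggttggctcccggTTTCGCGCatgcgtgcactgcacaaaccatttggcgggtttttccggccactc

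Of the 47 genes, 39 had a promoter in the RefSeq table, and the 250 bases before the start were searched on both strands. At least 1 of the 3 E2F motifs stood in 14 of these 39 promoters (35.9%), against 2.38% of all 27305 promoters and 3.21% of 15843 promoters of protein-coding genes. TTTCCCGC was found in 8 of the 39 and in 1.42% of all promoters, TTTGGCGC in 5 and 0.553%, and TTTCGCGC in 3 and 0.469%. The motif CCAAT, bound by NF-Y, was in 21 of the 39 promoters (53.8%) and in 33.0% of all. TTTGAA, the core of the CHR element of many G2/M genes, was in 1 of the 39 (2.56%) and in 13.6% of all. Letters alone do not show that a factor binds.

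The values are deposited linear intensities per probe set, comparable between arrays and not between genes. Means after trimming the extremes ran from 299 to 309 over the 29 arrays, and Pearson's r between arrays of the same group lay between 0.980 and 0.998. Epithelial markers were bright in DMSO cultures, with CDH1 at 6614, EPCAM at 3923 and KRT18 at 4946. Of 11 measured markers of leukocytes, endothelium and fibroblasts, 9 lay below the minimum for testing, an intensity of 37.4, among them PTPRC (9.24), PECAM1 (25.9), VWF (16.9) and COL3A1 (12.0). The other two were COL1A1 (601) and CD14 (43.9), which rose at 1000 nM by 0.39 and 0.78 log2. At 500 nM COL1A1 rose by 0.74 and CD14 did not pass (0.03). The 11 markers summed to an intensity of 1007 at 1000 nM, 1192 at 500 nM and 770 in DMSO, and the part of such cells in the results was not tested. The 3′ over 5′ signal of the actin and GAPDH control probes, a measure of RNA quality and amplification, averaged 0.84 ± 0.02 log2 at 1000 nM, 0.93 ± 0.08 at 500 nM and 1.18 ± 0.04 in DMSO (SD, n = 3 each), so this mean moved with the higher doses. Only actin fell, to 1.52 at 1000 nM and 1.67 at 500 nM from 2.21 in DMSO. GAPDH gave 0.17, 0.20 and 0.14 in the same order. The covariate used below is the mean of both and so mostly follows actin.

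The replication genes split at 1000 nM, with ORC1, ORC6, CDC6, CDT1 and GMNN and 4 of 5 cyclins above DMSO and both primase subunits, POLA1 and 4 of 7 firing factors below it. At 1000 nM, 23 of the 47 genes were higher than in DMSO (48.9%, against 28.9% of 27307 tested probe sets), 12 were lower (25.5%, against 31%) and 12 did not pass the test. Called means an adjusted p under 0.05 in limma's moderated test, with Benjamini-Hochberg adjustment over the 27307 probe sets, and either direction was called in 59.9% of them. The arrays of the 1000 nM and DMSO groups did not overlap for 37 of the 47 genes (78.7%), against 65.1% of tested probe sets. At 500 nM, 15 genes were higher (31.9%, against 23.1%) and 17 lower (36.2%, against 22.3%), where 45.4% of probe sets were called either way. Arrays did not overlap there for 32 genes (68.1%, against 43.7%). These shares are of all tested probe sets, dimmer ones included, while each of the 47 is its gene's brightest. The upper 25% of mean levels held 43 of the 47. Of its probe sets, 67.5% were called at 1000 nM and 53.7% at 500 nM. Among those members 20 were higher and 12 lower at 1000 nM, and 13 and 17 at 500 nM. The median log2 change of the 47 was 0.09 at 1000 nM and -0.01 at 500 nM, and over all tested probe sets it was -0.01 and 0.01. The median size of the change, without its sign, was 0.34 and 0.23 for the 47, against 0.29 and 0.21 for all probe sets. In whole cultures, fewer cells in a phase of the cycle and less RNA per cell cannot be told apart. With the 3′ to 5′ ratio as a covariate, 19 genes were higher and 12 lower at 1000 nM, and 13 and 12 at 500 nM, while the share of all probe sets called was 40.7% at 1000 nM and 35.5% at 500 nM. That covariate ended the 1000 nM calls of CCNE2, GINS2, GMNN, RFC3, RPA2 and RRM2 and added E2F1 and UHRF1. At 500 nM it ended the calls of CCNE1, CDC6, E2F1, GINS3, GMNN, MCM3, MCM10, PCNA, RRM2 and SLBP and added CCNE2, MCM2 and RPA1. Leaving out 1 array ended at least once the 1000 nM calls of GINS2, GMNN, POLE, RFC3 and RRM2. It ended the 500 nM calls of CCND3, CCNE1, CDC6, E2F1, GINS3, GMNN, MCM4, POLD1, SLBP, TK1 and UHRF1.

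**Figure D1:**
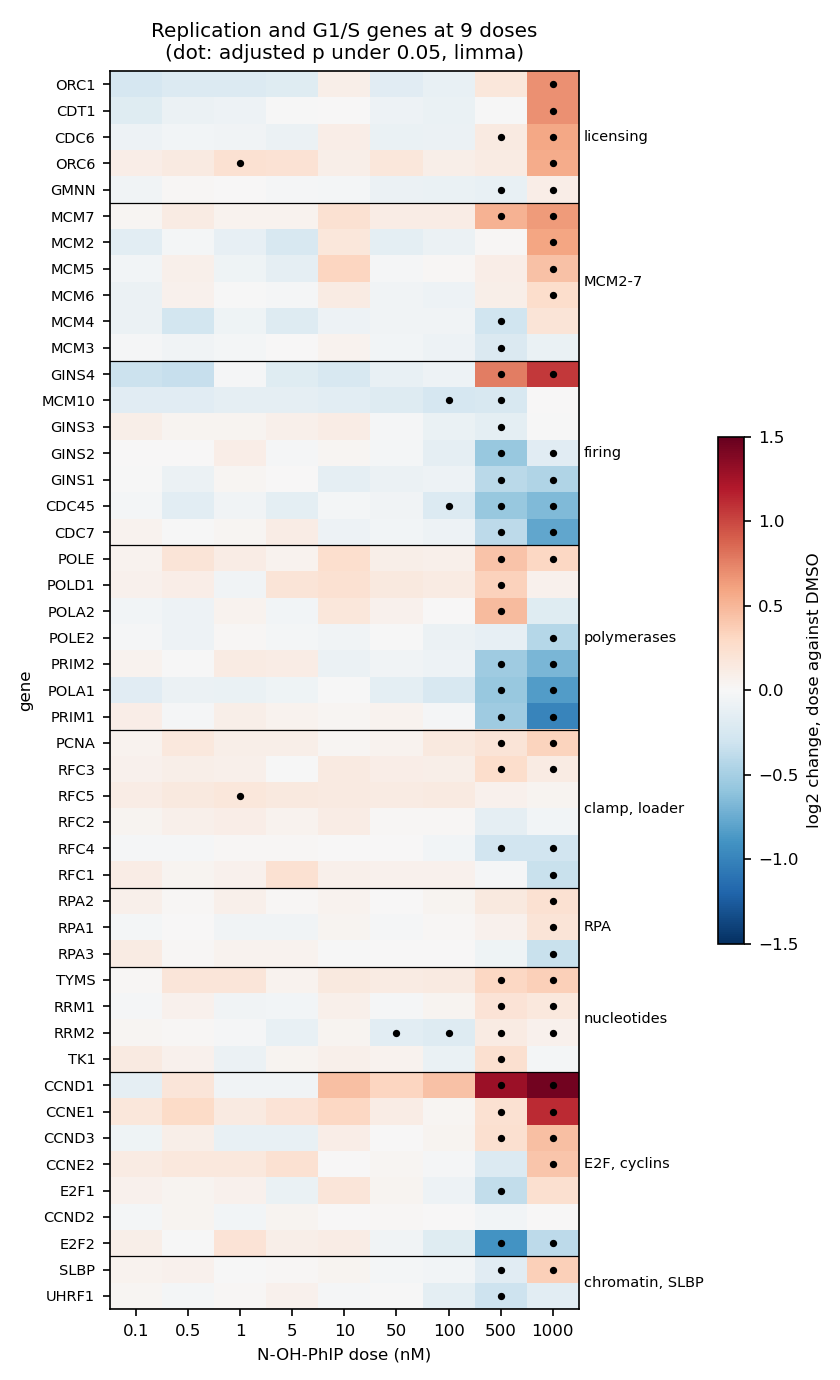
Heat map of the log2 change of each of the 47 genes (rows, grouped by role) at each of the 9 doses of N-OH-PhIP in nM against DMSO (columns), with red for higher, blue for lower and a dot for an adjusted p under 0.05. Dots mark 32 of the 47 genes at 500 nM and 35 at 1000 nM, and 6 dots stand at 100 nM or below.

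Both doses are compared with the same 3 DMSO arrays, so the calls are set side by side only. CCND1, CCND3, CCNE1, CDC6, GINS4, MCM7, PCNA, POLE, RFC3, RRM1, RRM2 and TYMS, 12 genes, were higher at both doses. CDC45, CDC7, E2F2, GINS1, GINS2, POLA1, PRIM1, PRIM2 and RFC4, 9 genes, were lower at both. GMNN and SLBP were higher at 1000 nM and lower at 500 nM. CCND2, RFC2 and RFC5 were called at neither dose on their brightest probe sets. Of RFC5's 3 tested probe sets, however, 2 were called lower at 500 nM, down to -0.22. Of CCND2's 4, 1 was called higher at 500 nM (0.38) and at 1000 nM (0.79).

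ORC1, ORC6, CDC6, CDT1 and the inhibitor GMNN, the 5 members with a role in licensing, were higher at 1000 nM, with a median log2 change of 0.58. Of all tested probe sets, 28.9% were higher at that dose. The other origin complex subunits, ORC2 to ORC5, are not members and were lower. The 5 members' median at 500 nM was 0.12 with 1 higher and 1 lower. CDT1, which brings the helicase to the origin, read 1419, 1253 and 1463 in the 1000 nM arrays, against 841, 800 and 921 in the DMSO arrays. Its 500 nM arrays read 878, 845 and 818, inside the DMSO range, so the 1000 nM arrays stood apart from both groups. The log2 change at 1000 nM was 0.68 ± 0.07 (SE, limma adjusted p = 4.1e-09), and at 500 nM it was -0.01 ± 0.07. ORC1, the subunit of the origin complex that binds and hydrolyses ATP, read 373, 340 and 304 at 1000 nM, against 181, 210 and 222 in DMSO. No 1000 nM array reached down to the DMSO arrays, and the log2 change was 0.69 ± 0.09 (limma adjusted p = 4.7e-07). At 500 nM, ORC1 read 241, 244 and 211, which overlapped DMSO.

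CDC6, the ATPase that joins the origin complex before the helicase is loaded, read 1410, 1378 and 1314 at 1000 nM and 884, 912 and 929 in DMSO, without overlap. Its log2 change was 0.58 ± 0.05 at 1000 nM (limma adjusted p = 1.7e-10) and 0.13 ± 0.05 at 500 nM (limma adjusted p = 0.029). The 500 nM call of CDC6 was lost without DMSO 1 or 2 or 500 nM 1 or 2, and its other probe set was called lower there (-0.22). ORC6, the smallest subunit of the origin complex, read 1936, 1784 and 1838 at 1000 nM, against 1197, 1300 and 1264 in DMSO. It rose by 0.56 ± 0.05 on the log2 scale at 1000 nM (limma adjusted p = 2.2e-09). GMNN encodes geminin, the inhibitor of CDT1, and changed least of the 5. It read 4873, 4364 and 4713 at 1000 nM, against 4241, 4347 and 4465 in DMSO, and the arrays overlapped. The log2 change of GMNN was 0.09 ± 0.04 at 1000 nM (limma adjusted p = 0.028), a call that was lost without 1 of 4 arrays (DMSO 1 or 2, 1000 nM 1 or 3), and -0.11 ± 0.04 at 500 nM (limma adjusted p = 0.015), lost without DMSO 3 or 500 nM 1.

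Of the 6 genes of the MCM2-7 helicase ring, 4 were higher at 1000 nM and none was lower, with a median log2 change of 0.35. Over all tested probe sets, 28.9% were higher and 31% lower there. MCM7 read 2935, 2723 and 2604 at 1000 nM and 2402, 2810 and 2461 at 500 nM, against 1709, 1714 and 1882 in DMSO. Both doses lay above every DMSO array, by 0.63 ± 0.06 log2 at 1000 nM (limma adjusted p = 3.8e-09) and 0.53 ± 0.06 at 500 nM (limma adjusted p = 2e-07). MCM2 read 1824, 1713 and 1807 at 1000 nM, against 1145, 1172 and 1226 in DMSO. At 500 nM, MCM2 read 1239, 1368 and 1002, on both sides of the DMSO arrays. MCM2's log2 change was 0.59 ± 0.09 at 1000 nM (limma adjusted p = 1.8e-06) and 0.02 ± 0.09 at 500 nM. MCM5 (0.44) and MCM6 (0.26) rose too, while MCM3 (-0.10) and MCM4 (0.19) did not pass at 1000 nM and were called lower at 500 nM. The 500 nM call of MCM4 (-0.30, limma adjusted p = 0.05) was lost without any 1 of 5 of the 6 arrays, 500 nM 1 being the exception, and over these 6 fits the change ran from -0.47 to -0.15.

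MCM4 was chosen for its spread between probe sets after its values were seen. Its 4 tested probe sets gave log2 changes of 0.16, 0.19, 0.92 and 1.96 at 1000 nM, and of -0.30 to 0.29 at 500 nM, where 2 were called lower and 1 higher. The dimmest of them averaged 703 ± 123 at 1000 nM and 167 ± 4.08 in DMSO (SD, n = 3 each). The brightest averaged 5125 ± 131 at 1000 nM and 4485 ± 236 in DMSO. All 4 were higher at 1000 nM than at 500 nM, by 0.32 to 1.76 log2.

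The 7 firing factors went mostly down, 4 lower and 1 higher at 1000 nM and 6 lower and 1 higher at 500 nM, with medians of -0.17 and -0.39. Among all tested probe sets, 31% were lower and 28.9% higher at 1000 nM, and 22.3% lower and 23.1% higher at 500 nM. CDC7, the kinase that phosphorylates loaded MCM2-7, read 1628, 1920 and 1835 at 1000 nM, against 3140, 3058 and 3022 in DMSO. Its 500 nM arrays read 2483, 2118 and 2427, between those groups and overlapping neither. CDC7 fell by 0.77 ± 0.05 log2 at 1000 nM (limma adjusted p = 3.6e-12) and by 0.39 ± 0.05 at 500 nM (limma adjusted p = 1.3e-06). CDC45, a helicase cofactor, read 971, 881 and 897 at 1000 nM and 1008, 1076 and 879 at 500 nM, against 1441, 1464 and 1482 in DMSO. Both doses were below every DMSO array, and the fall at 1000 nM was 0.67 ± 0.06 log2 (limma adjusted p = 1.2e-10).

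The 4 GINS subunits, which form one complex, did not move together. GINS4 read 199, 263 and 220 at 1000 nM and 182, 186 and 178 at 500 nM, against 98.3, 98.8 and 103 in DMSO. Every exposed array at these doses was above every DMSO array, and the log2 change was 1.06 ± 0.11 at 1000 nM (limma adjusted p = 8.7e-09) and 0.77 ± 0.11 at 500 nM. GINS1 read 2760, 3054 and 3342 at 1000 nM and 4198, 4183 and 4078 in DMSO, a fall by 0.45 ± 0.07 log2 (limma adjusted p = 2.7e-06) with no overlap. GINS2 was lower at both doses, by -0.17 ± 0.07 at 1000 nM (limma adjusted p = 0.036) with overlapping arrays and by -0.57 ± 0.07 at 500 nM (limma adjusted p = 1.5e-07) without overlap. The 1000 nM call of GINS2 was lost without any 1 of 4 arrays, DMSO 2 or 3 or 1000 nM 2 or 3, and with the 3′ to 5′ ratio as a covariate the change was 0.026. GINS3 gave -0.01 at 1000 nM and -0.15 at 500 nM.

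Of the 4 largest falls among the 47 genes, 3 were those of strand initiation. PRIM1, the catalytic primase subunit, read 1141, 1259 and 1297 at 1000 nM, against 2422, 2438 and 2511 in DMSO. At 500 nM PRIM1 read 1615, 1821 and 1657, between the other groups and overlapping neither. It fell by 0.99 ± 0.07 log2 at 1000 nM (limma adjusted p = 1.6e-12) and by 0.53 ± 0.07 at 500 nM (limma adjusted p = 2.7e-07). PRIM2, the regulatory primase subunit, read 624, 668 and 687 at 1000 nM and 1087, 1047 and 1065 in DMSO. The groups of PRIM2 did not overlap, and the change was -0.68 ± 0.07 (limma adjusted p = 4.7e-09).

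POLA1, the catalytic subunit of polymerase alpha, read 430, 443 and 511 at 1000 nM and 527, 605 and 545 at 500 nM, against 815, 848 and 834 in DMSO. Both doses were below every DMSO array, with falls by 0.83 ± 0.07 (limma adjusted p = 2.2e-10) and 0.56 ± 0.07 log2 (limma adjusted p = 4.4e-07). POLA2, the accessory subunit of the same polymerase, took another course. It read 533, 573 and 438 at 500 nM, all above the DMSO arrays of 351, 357 and 383, a log2 change of 0.48 ± 0.09 (limma adjusted p = 6.1e-05). At 1000 nM it read 308, 311 and 338, below DMSO by -0.18 ± 0.09, which did not pass (limma adjusted p = 0.072). POLA2's dimmer probe set was called in neither comparison. Of the replicative polymerases, POLE was higher at 1000 nM (0.31) and its partner subunit POLE2 lower (-0.43), while POLD1 (0.06) was called at 500 nM only (0.35). The 7 polymerase and primase genes counted 1 higher and 4 lower at 1000 nM and 3 higher and 3 lower at 500 nM. All tested probe sets gave 28.9% higher and 31% lower at 1000 nM, and 23.1% and 22.3% at 500 nM.

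PCNA, the sliding clamp that holds polymerases on DNA, read 4405, 4205 and 4507 at 1000 nM, against 3612, 3288 and 3493 in DMSO. No arrays overlapped, and PCNA was higher by 0.33 ± 0.05 log2 (limma adjusted p = 2.4e-06) and by 0.19 ± 0.05 at 500 nM (limma adjusted p = 0.003). Of the 5 subunits of the clamp loader RFC, RFC1 (-0.34) and RFC4 (-0.29) were lower at 1000 nM, RFC3 (0.13) was higher, and RFC2 (-0.04) and RFC5 (0.04) did not pass. RFC1, the large subunit, read 1163, 1132 and 1149 at 1000 nM, against 1403, 1474 and 1483 in DMSO, without overlap. RFC1's other tested probe set gave -0.03 at 1000 nM and was not called, so the fall rests on the brighter probe set. The 500 nM arrays of RFC1's brighter probe set read 1291, 1290 and 1781, so 1 array was above and 2 were below DMSO. Of the single-strand binding complex RPA, RPA1 (0.20) and RPA2 (0.22) rose at 1000 nM and RPA3 (-0.34) fell.

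Nucleotide supply genes gave small positive changes, 3 of 4 higher at 1000 nM and 4 of 4 at 500 nM. Higher calls made up 28.9% and 23.1% of all tested probe sets at these doses. TYMS, thymidylate synthase, read 2513, 2563 and 2358 at 1000 nM and 2463, 2401 and 2340 at 500 nM, against 1808, 1929 and 2045 in DMSO. Both doses were above every DMSO array by 0.36 ± 0.06 (limma adjusted p = 4.9e-06) and 0.32 ± 0.06 log2 (limma adjusted p = 5.5e-05). RRM2, the small subunit of ribonucleotide reductase, read 4897, 4881 and 4904 at 1000 nM and 4546, 4668 and 4795 in DMSO, a rise of 0.07 ± 0.03 log2 (limma adjusted p = 0.049). That call was lost without any 1 of 5 of these 6 arrays, DMSO 3 being the exception. RRM2's other tested probe set gave -0.08 at 1000 nM and was not called. RRM1, the large subunit, was higher at both doses, by 0.15 and 0.21. TK1, thymidine kinase, was higher at 500 nM (0.24) and gave -0.03 at 1000 nM. The TK1 call was lost without DMSO 1 or 2 or 500 nM 2, and the change ran from 0.074 to 0.364 with 1 array left out.

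The largest rises were those of cyclins. CCND1, cyclin D1, which activates CDK4 and CDK6 in G1, read 1195, 1178 and 1121 at 1000 nM, against 406, 422 and 418 in DMSO. At 500 nM CCND1 read 1065, 1158 and 890, also clear of DMSO. It was higher by 1.45 ± 0.12 log2 (limma adjusted p = 1.9e-10) and by 1.28 ± 0.12 (limma adjusted p = 4.4e-09). CCNE1, cyclin E1, the partner of CDK2 at S phase entry, read 1129, 1196 and 1164 at 1000 nM, against 514, 531 and 529 in DMSO. Its 500 nM arrays of 580, 587 and 700 were nearer to DMSO than to the 1000 nM arrays, and no groups overlapped. CCNE1 was higher by 1.12 ± 0.09 log2 at 1000 nM (limma adjusted p = 1.3e-10) and by 0.23 ± 0.09 at 500 nM (limma adjusted p = 0.045), the second lost without any 1 of the DMSO arrays or without 500 nM 3.

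CCNE2, cyclin E2, read 1596, 1624 and 1812 at 1000 nM, against 1308, 1182 and 1254 in DMSO, a rise of 0.42 ± 0.13 log2 with no overlap (limma adjusted p = 0.0079), which became -0.075 with the 3′ to 5′ ratio as a covariate. At 500 nM its arrays scattered from 787 to 1510 around DMSO, and the change of -0.20 ± 0.13 was called without 500 nM 3 alone. CCND3 rose by 0.45 ± 0.10 at 1000 nM, and CCND2, at 0.01 ± 0.05, did not pass. E2F1, an activating E2F factor, read 1422, 1481 and 1379 at 1000 nM, against 1148, 1189 and 1272 in DMSO, and the change of 0.24 ± 0.11 missed the threshold (limma adjusted p = 0.06) although no arrays overlapped. E2F1's other tested probe set was called higher at 1000 nM (0.27). At 500 nM E2F1 read 972, 1165 and 699 and was called lower by -0.37 ± 0.11 (limma adjusted p = 0.0078), a call lost without the lowest array, 500 nM 3. With the 3′ to 5′ ratio as a covariate E2F1 was called higher at 1000 nM (0.63, limma adjusted p = 0.014) and not called at 500 nM (-0.088, limma adjusted p = 0.71). E2F2, another activating factor, read 765, 562 and 611 at 1000 nM and 428, 507 and 417 at 500 nM, against 836, 818 and 887 in DMSO. E2F2 was below DMSO at both doses without overlap, by -0.39 ± 0.10 (limma adjusted p = 0.00094) and -0.89 ± 0.10 (limma adjusted p = 2.5e-08), and lowest at 500 nM.

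**Figure D2:**
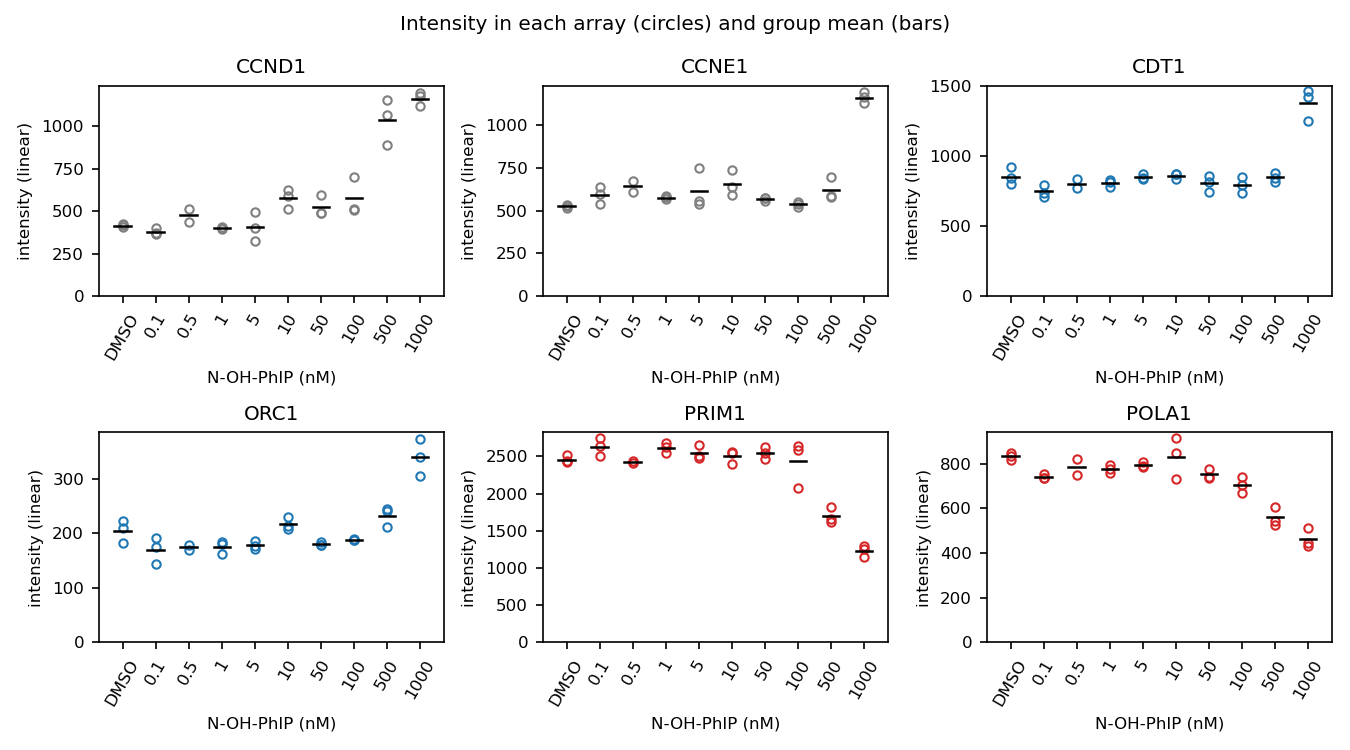
Linear intensity (y axis, from 0) in each array (circles) with the group mean (bars) for CCND1, CCNE1, CDT1, ORC1, PRIM1 and POLA1, by dose of N-OH-PhIP in nM from DMSO upward. CCND1, PRIM1 and POLA1 leave the DMSO arrays at 500 nM, and CDT1 reaches 1253 to 1463 at 1000 nM alone.

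SLBP, which binds histone mRNA during S phase, changed sides between the doses. It read 2379, 2175 and 2308 at 1000 nM, against 1777, 1730 and 1842 in DMSO, a rise of 0.36 ± 0.06 log2 (limma adjusted p = 3.9e-06). At 500 nM SLBP read 1489, 1591 and 1677, below every DMSO array by -0.17 ± 0.06 (limma adjusted p = 0.014), a call lost without DMSO 3 or 500 nM 1. UHRF1, which recruits the maintenance methyltransferase at replication forks, was lower at 500 nM (-0.32) and did not pass at 1000 nM (-0.16, limma adjusted p = 0.11).

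The direct comparison of the highest 2 doses does not use the DMSO arrays. ORC1, ORC6, CDC6, CDT1 and GMNN, both E2F genes and both E cyclins were higher at 1000 nM than at 500 nM, and POLA1, POLA2, PRIM1 and POLE2 were lower. Of the 47 genes, 19 were higher (40.4%, against 17.7% of tested probe sets) and 9 lower (19.1%, against 25.6%), where 43.3% of probe sets were called either way. In the upper 25% of mean levels 17 members were higher and 9 lower, where 52.2% of probe sets were called. By role, 5 of 5 members with a role in licensing, 4 of 6 MCM2-7 genes, 3 of 7 firing factors and 4 of 7 E2F and cyclin genes were higher, and 4 of 7 polymerase and primase genes were lower, while POLD1, POLE and PRIM2 did not pass. Leaving out 1 array ended at least once the calls of GINS4, MCM5, MCM6, PCNA, RFC1, RFC3, RPA1 and TK1. The 3′ to 5′ covariate ended those of GINS4, PCNA and TK1 and added CCND3 and MCM3. The median log2 difference was 0.12 for the 47 and -0.03 for all tested probe sets. Arrays of the 2 doses did not overlap for 26 genes (55.3%, against 41.3%).

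From the arrays given above, CCNE1 differed by 0.89 ± 0.09 log2 between 1000 and 500 nM (limma adjusted p = 4.5e-08), CDT1 by 0.69 ± 0.07 (limma adjusted p = 1.8e-08), CCNE2 by 0.62 ± 0.13 (limma adjusted p = 0.00044) and E2F1 by 0.62 ± 0.11 (limma adjusted p = 7e-05). None of these 4 had overlapping arrays between the doses. The largest negative differences were those of POLA2 at -0.66 ± 0.09 (limma adjusted p = 1.1e-06), PRIM1 at -0.46 ± 0.07 (limma adjusted p = 4e-06) and CDC7 at -0.38 ± 0.05 (limma adjusted p = 3e-06). RFC1 followed at -0.32 ± 0.09 (limma adjusted p = 0.0045), a call lost without 500 nM 3. Its other tested probe set gave -0.03 and was not called. POLA2's other tested probe set gave -0.16 and was not called either. E2F2, called higher between these doses, had another tested probe set at 0.09 that was not called. CCND1, the largest rise against DMSO, was not called between these doses (0.17 ± 0.12, limma adjusted p = 0.28), and CDC45, GINS1 and MCM7 did not pass either. The SD over 3 arrays was 51.4 at 1000 nM and 234 at 500 nM for E2F1, and 131 at 1000 nM and 863 at 500 nM for MCM4.

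**Figure D3:**
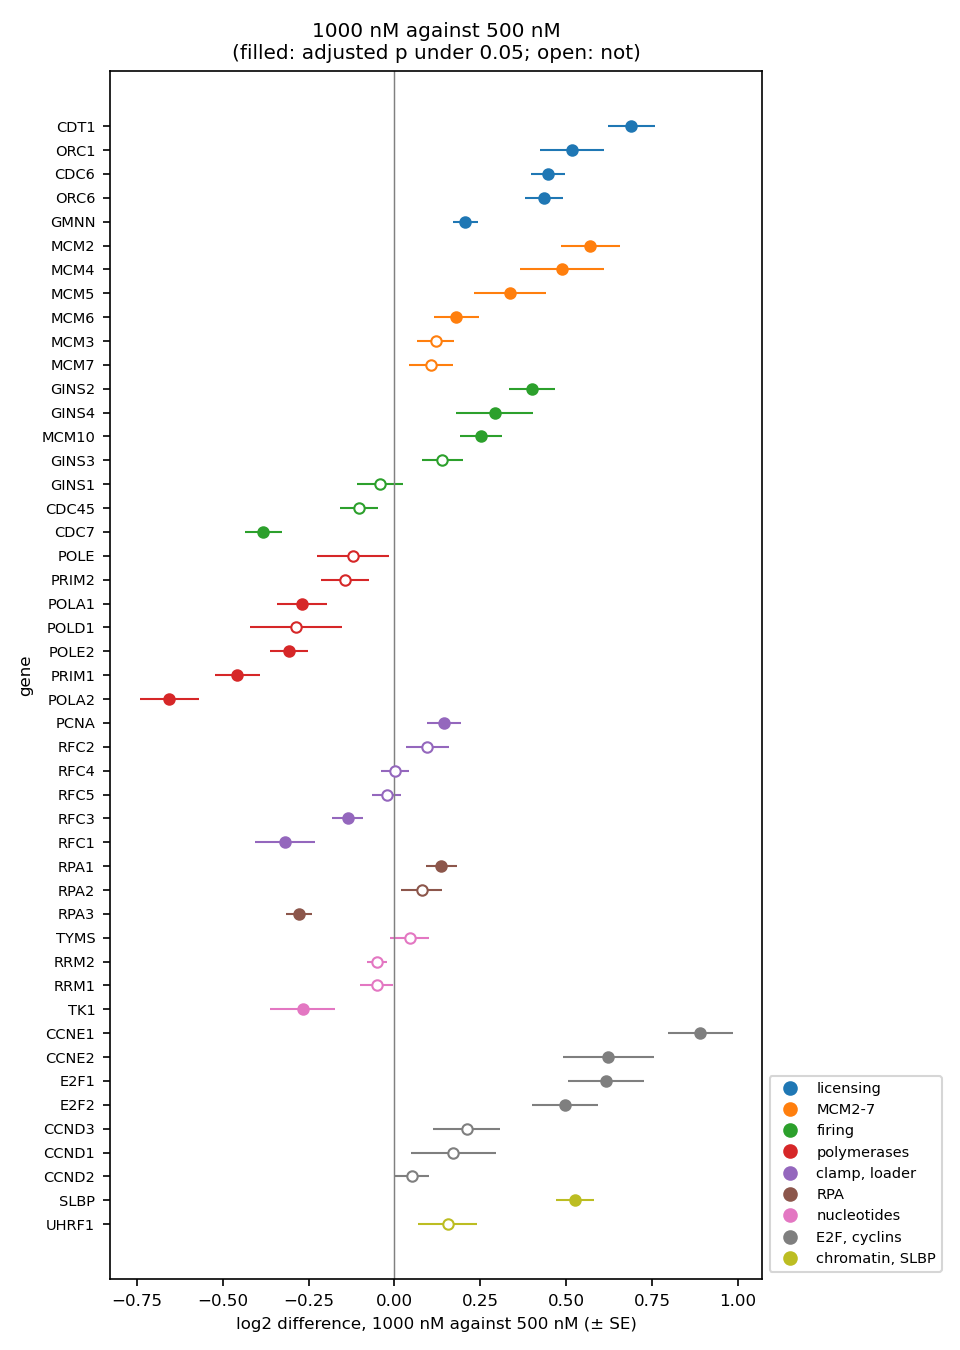
Log2 difference of 1000 nM against 500 nM (x axis, with SE bars) for the 47 genes (y axis), coloured by role, with filled points for an adjusted p under 0.05. All 5 members labelled licensing (ORC1, ORC6, CDC6, CDT1 and GMNN) lie right of 0 and all 7 polymerase and primase genes lie left of it, 4 of them filled.

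At 100 nM and below, few replication genes were called. At 100 nM, 3 of the 47 were lower and 0 higher (2.9% of tested probe sets were called either way, 1.53% lower), at 50 nM 1 was lower (0.264% either way, 0.143% lower), and at 1 nM 2 were higher (0.78% either way, 0.205% higher). At 0.1, 0.5, 5 and 10 nM limma called 0 of the 47, where it called 0.597%, 0.0439%, 1.11% and 0.242% of all tested probe sets. Before adjustment, limma's p was under 0.05 for 7, 9, 9 and 11 of the 47 at those 4 doses. The share of all tested probe sets at that threshold was not taken, and the 4 comparisons share the same DMSO arrays. Nothing is therefore read from these unadjusted counts.

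RRM2 was the gene called at both 50 and 100 nM. It read 4311, 4067 and 4203 at 50 nM and 4058, 4127 and 4057 at 100 nM, all below the DMSO arrays of 4546, 4668 and 4795. The change was -0.15 ± 0.03 (limma adjusted p = 0.016) and -0.19 ± 0.03 (limma adjusted p = 0.00017), opposite in sign to the change of this probe set at 500 nM (0.12 ± 0.03, limma adjusted p = 0.0018). RRM2's other tested probe set gave -0.09 at 500 nM and was not called there, so the change of sign rests on 1 probe set. The 50 nM call of RRM2 was lost without DMSO 2 or 3 or 50 nM 2 or 3. At 100 nM CDC45 read 1258, 1293 and 1261, below the DMSO arrays by -0.20 ± 0.06 (limma adjusted p = 0.049), and this call was lost without any 1 of the 6 arrays. MCM10, which helps activate the helicase, read 1088, 1224 and 1048 at 100 nM, against 1311, 1370 and 1309 in DMSO (-0.25 ± 0.06, limma adjusted p = 0.024), lost without DMSO 1 or 2 or 100 nM 1 or 3. MCM10 was also lower at 500 nM (-0.24 ± 0.06), read 1292, 1262 and 1471 at 1000 nM (0.01 ± 0.06), and its other 2 probe sets rose at 1000 nM by 0.38 and 0.53.

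At 1 nM ORC6 read 1494, 1474 and 1438, against 1197, 1300 and 1264 in DMSO (0.23 ± 0.05, limma adjusted p = 0.046). RFC5, a clamp loader subunit, read 2606, 2538 and 2585 at 1 nM, against 2315, 2191 and 2341 in DMSO (0.17 ± 0.04, limma adjusted p = 0.046). Neither gene had overlapping arrays there, and neither was called at 5 or 10 nM without a covariate or a stricter level filter. The 1 nM arrays had the highest 3′ to 5′ log2 ratio of the 10 groups, 1.35 ± 0.06 (SD, n = 3), and with that ratio as a covariate neither gene was called (limma adjusted p = 0.17 for ORC6 and 0.15 for RFC5), with 24 of all probe sets called in place of 213. Both 1 nM calls were also lost without any 1 of the 6 arrays. At 5 nM the covariate called ORC6 (0.22, limma adjusted p = 0.048), MCM2 (-0.34, limma adjusted p = 0.018) and RFC1 (0.31, limma adjusted p = 0.043). It called 2.41% of all probe sets at that dose. With the upper 25% of mean levels alone, ORC6 (0.21, limma adjusted p = 0.037) and RRM2 (-0.11, limma adjusted p = 0.033) were called at 5 nM. With the mean of its probe sets RFC5 gave 0.10 at 1 nM and was not called. CCND1 averaged 576 ± 59.4 at 10 nM and 576 ± 112 at 100 nM, against 415 ± 8.33 in DMSO (SD, n = 3 each), and was not called at either dose. Its change at 100 nM was 0.44 ± 0.12 log2 (limma adjusted p = 0.053). CCND1 was called at 100 nM without 100 nM 1, in the upper 25% of mean levels and with the 0.1 to 10 nM arrays as reference.

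Over the 26 treated arrays the slope on log10 dose rose for 17 genes and fell for 17 (36.2% each, against 30.6% and 28.9% of tested probe sets), and 59.5% of probe sets had a called slope. The steepest rises per 10-fold dose were those of CCND1 (0.37 ± 0.04, limma adjusted p = 1.1e-06), GINS4 (0.29 ± 0.05, limma adjusted p = 1.6e-05) and ORC1 (0.17 ± 0.03, limma adjusted p = 0.0001). The steepest falls were those of PRIM1 (-0.21 ± 0.04, limma adjusted p = 4.6e-05), E2F2 (-0.19 ± 0.04, limma adjusted p = 6.2e-05) and PRIM2 (-0.17 ± 0.03, limma adjusted p = 9.2e-06). Over doses of 10 nM and below, limma called 0 of the 47 slopes and 0 of all probe sets, and with the 3′ to 5′ ratio as a covariate it called 0 of the 47 and 120 of all probe sets (0.439%).

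Other genes of the pathway, listed with earlier results of these data known, were 55, of which 54 were found and tested. At 1000 nM 12 were higher and 23 lower, with a median log2 change of -0.03, and at 500 nM 6 were higher and 21 lower. These are 22.2% and 42.6% at 1000 nM, against 28.9% and 31% of all tested probe sets, and 11.1% and 38.9% at 500 nM, against 23.1% and 22.3%. ASF1B, a histone chaperone, averaged 2304 ± 75.1 at 1000 nM and 1122 ± 95.0 in DMSO (log2 1.03 ± 0.09). FEN1, the nuclease that trims Okazaki fragments, averaged 4270 ± 366 at 1000 nM and 2320 ± 25.8 in DMSO (log2 0.87 ± 0.06, SD and SE, n = 3 each). The next rises were those of the helicase RECQL4 (0.68) and the alternative clamp loader subunit CHTF18 (0.57). The largest falls were those of ORC5 (-0.96), E2F5 (-0.69), CDK6 (-0.69) and ORC3 (-0.68).

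Subunits of the origin recognition complex therefore stood on both sides of DMSO at 1000 nM. ORC1 and ORC6 were higher, while ORC2 averaged 890 ± 29.2 at 1000 nM and 1394 ± 80.2 in DMSO (SD, n = 3 each; log2 -0.64). ORC3 averaged 770 ± 7.60 at 1000 nM and 1247 ± 48.3 in DMSO, and ORC4 averaged 1340 ± 81.5 at 1000 nM and 1947 ± 79.7 in DMSO (log2 -0.53). ORC5 averaged 525 ± 30.7 at 1000 nM and 1033 ± 13.0 in DMSO. At 500 nM ORC3 (-0.26), ORC4 (-0.33) and ORC5 (-0.34) were lower and ORC1, ORC2 and ORC6 did not pass. Between 1000 and 500 nM, ORC2 (-0.50), ORC3 (-0.42), ORC4 (-0.21) and ORC5 (-0.61) were lower.

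**Figure D4:**
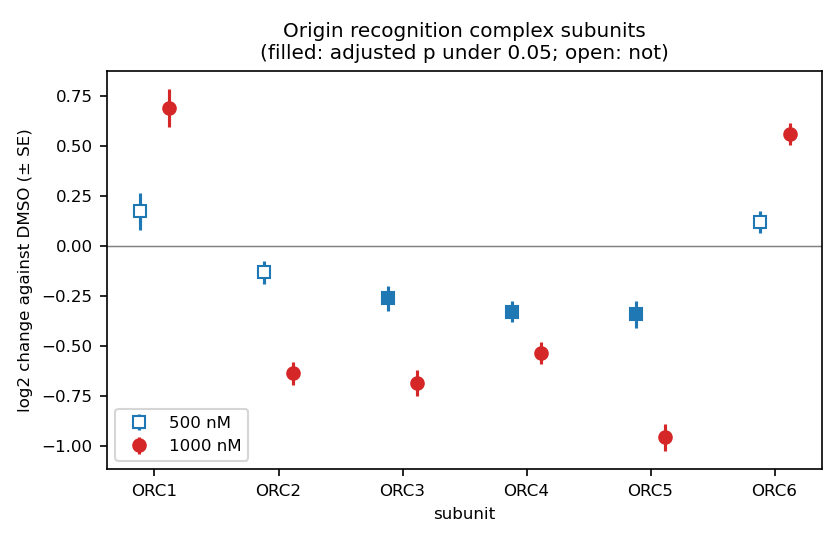
Log2 change against DMSO with SE (y axis) of the 6 origin recognition complex subunits (x axis) at 500 nM (squares) and 1000 nM (circles), filled where the adjusted p was under 0.05. ORC1 and ORC6 lie at 0.69 and 0.56 at 1000 nM, and ORC2 to ORC5 lie between -0.96 and -0.53.

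The length of the gene in the genome varied widely, from 5.47 kb for CDT1 to 425 kb for PRIM2 in RefSeq (GRCh38.p14). Across the 47 genes, Spearman's rho between span and log2 change was -0.43 at 1000 nM, -0.10 at 500 nM and -0.50 for 1000 against 500 nM, given as a description over genes measured on the same arrays. Over 11363 genes of the array the values were -0.41, -0.32 and -0.26. Of 25 members under 25 kb, 14 were higher and 4 lower at 1000 nM, and of 11 members at or over 50 kb, 6 were higher and 4 lower. Over all genes under 25 kb, 38.0% were higher and 20.3% lower, and over all genes at or over 50 kb, 13.9% were higher and 58.0% lower. POLA1 (303 kb) and PRIM2 were long and lower, and CCND3 (115 kb) and RFC3 (159 kb) were long and higher. The call of RFC3 was lost without DMSO 3 or 1000 nM 1, and 1 of its 3 probe sets was called lower (-0.73). PRIM1 (20.7 kb) and CDC7 (24.9 kb) were short and among the largest falls.

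**Figure D5:**
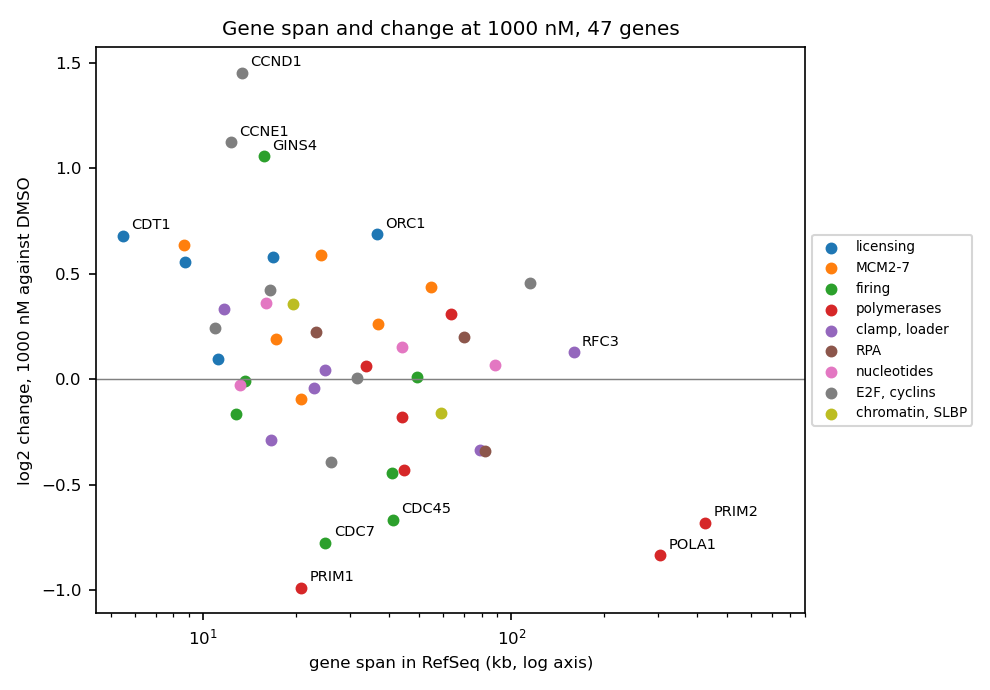
Log2 change at 1000 nM against DMSO (y axis) by gene span in RefSeq (kb, log x axis) for the 47 genes, coloured by role. CCND1, CCNE1 and GINS4, the 3 largest rises, are short genes, and the 4 largest falls include PRIM1 at 20.7 kb and PRIM2 at 425 kb.

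Promoters with an E2F motif were found on both sides of the comparison of the highest doses. Of the genes higher at 1000 than at 500 nM, 6 of 15 with a promoter held one, namely CDT1, E2F1, E2F2, GINS2, MCM6 and PCNA. Of the genes that were lower, 3 of 8 held one, POLA1, POLA2 and RFC3, and of those not called 5 of 16 did.

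Genes with several tested probe sets, 24 of the 47, show how far a level depends on the probe set. At 1000 nM 2 of them had probe sets called in opposite directions, at 500 nM 3 did, and between 1000 and 500 nM 0 did. MCM6's dimmer probe set fell by 0.50 log2 at 1000 nM while its brighter one rose by 0.26, and of RFC3's 3 probe sets the dimmest gave -0.73 and the brightest 0.13. RRM1 (0.15 and 0.96), CCNE2 (0.42 and 0.94) and CDT1 (0.68 and 0.61) rose on both of their probe sets. One of CCND2's other probe sets rose by 0.79 at 1000 nM while its brightest did not pass.
CDKN1A, the cyclin-dependent kinase inhibitor p21, was higher at 50 nM (0.25, limma adjusted p = 0.042), 100 nM (0.43), 500 nM (0.77) and 1000 nM (0.53). It averaged 6740 ± 119 at 1000 nM and 7967 ± 536 at 500 nM (SD, n = 3 each), a difference of -0.24 ± 0.05 log2 (limma adjusted p = 0.00069).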

How the data were processed

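Per the labels' protocols, 40 ng of total RNA per culture was amplified and biotin-labelled. The submitters' processing notes name GCOS, whose version and settings are not given in the sources used here. What the authors deposited is a linear intensity per probe set, with array means at a common level, and it was used without further normalization. The platform annotation gave the gene symbols, and 90 of 90 member probe sets were matched to RefSeq by gene identifier.

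Values were taken as log2(intensity + 16), so changes of dim probe sets are understated. The 27307 probe sets with a mean at or above the median were tested with limma 3.58.1 in R 4.3.3, in one model holding 10 group means and a mean-variance trend, with two-sided p-values adjusted by Benjamini-Hochberg at 0.05. Replicates were separate cultures per the labels. Contrasts were each dose against DMSO, 1000 against 500 nM, and a slope on log10 dose. The comparisons with DMSO share its 3 arrays. The fit was tested on simulated data. Figures were drawn with matplotlib 3.10.9. The number of arrays limits the precision.

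Members and gene lists were chosen with earlier results of these data known. Genes named with values in every array were the 6 largest called changes each way at 1000 nM, the 4 each way for 1000 against 500 nM, the 3 steepest slopes each way, those called at 100 nM or below, and PCNA, CCND1, CCNE1, CCNE2, E2F1, MCM2, CDC6, RRM2 and TYMS. GMNN, SLBP and MCM4 were added after their values were seen. For the pathway list, the 4 largest called changes each way at 1000 nM were named, and the other origin recognition subunits were added after their values were seen. Alternatives were the level filter, the offset, a scaling, the trend, the samples in the fit, a minimum fold, a replicate block, the probe set rule and the 3′ to 5′ ratio as a covariate.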

Additional observations from a re-analysis of the deposited data

How the results depend on the processing

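Called changes of the 47 genes at 100, 500 and 1000 nM, between 1000 and 500 nM and on the slope kept their sign under the offset of 1, quantile normalization, either level filter, no mean-variance trend, the replicate block and each left-out array, with 43 of the 47 genes left in the upper 25% of levels. Counts at 1000 nM stayed within 1.5 times of 23 and 12 except with a minimum of 1.5-fold, which left 7 higher and 5 lower at 1000 nM, 2 and 1 at 500 nM, 4 and 1 between these doses, and 0 at 100 nM and below. Under that minimum, 23.6% of all tested probe sets were called either way at 1000 nM, 12.6% at 500 nM and 9.31% between these doses. By that measure the 47 were near the whole array at 1000 nM and between the doses, and below it at 500 nM. A fit of the dose and DMSO arrays only gave 8 higher and 10 lower at 500 nM, where 26.2% of all tested probe sets were called. Slopes were called for 0 rising and 0 falling genes with the 3′ to 5′ ratio as a covariate and over doses of 10 nM and below. The 3 calls at 50 nM and below became 1 without a level filter, 5 in the upper 25% of levels, 0 without the trend and 1 with the replicate block, which moved no other count by over 1.5 times. At 100 nM, 1 gene, CCND1, was higher in the upper 25% and with the 0.1 to 10 nM arrays as reference, a setting chosen after seeing the data. Leaving out each array in turn gave 0 to 1 genes higher and 1 to 2 lower at 100 nM, 0 to 3 called at 50 nM and below, 20 to 22 higher and 11 to 13 lower at 1000 nM, 10 to 16 higher and 13 to 17 lower at 500 nM, and 16 to 21 higher and 7 to 10 lower between those doses. The counts at 100 nM and below moved by over 1.5 times without any 1 DMSO array, 100 nM 1 or 3, any 50 nM or 1 nM array, 10 nM 3, 5 nM 2, or 0.1 nM 1 or 3. Calls held in every such fit for 30 of 35 genes at 1000 nM, 21 of 32 at 500 nM and 20 of 28 between these doses. Same-numbered arrays of different groups had a median correlation of 0.014 in their deviations (-0.52 to 0.75), so the numbers were not taken as pairs.

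Some single genes reversed. With the covariate, the log2 change at 1000 nM was -0.075 for CCNE2 and 0.026 for GINS2, and the slope was -0.068 for CCNE1, -0.0072 for CDC6, 0.0047 for RFC2 and 0.0033 for RFC5. Over 10 nM and below, the slope was 0.00820 for E2F2, 0.017 for GINS3, 0.036 for MCM3, -0.017 for PCNA, 0.068 for POLA1, 0.024 for RFC1, 0.021 for RFC2, 0.013 for RFC4 and 0.00987 for RFC5. With the mean of a gene's probe sets the log2 change was -0.044 for CDC6 and 0.0013 for MCM10 at 500 nM, -0.12 for MCM6 at 1000 nM (slope -0.055), -0.13 for RFC3 at 1000 nM and -0.016 at 500 nM, and -0.0063 for RRM2 at 1000 nM. The cause of these reversals was not tested.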
